A study of Mus musculus with 14 samples.

Results

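The 10 genes described here encode secreted proteins that attract or sustain leukocytes: Csf1, Cxcl12, Ccl2, Ccl7, Ccl20, Cxcl1, Cxcl5, Il6, Il33 and Lif. They were picked by symbol from the 32926 symbols of a count table of cultured mouse small cell lung cancer cells, and all 10 were found. Poly(A) RNA of 14 libraries in 6 groups was sequenced: NE and Non-NE cultures with 3 libraries each, and cultures titled OE_YAP5SA at days 0, 3, 7 and 21 with 2 libraries each. NE and Non-NE stand for neuroendocrine and non-neuroendocrine tumour cells. YAP5SA is a form of the transcriptional co-activator YAP in which serines that are phosphorylated to inhibit it are replaced by alanine.

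All cultures came from lung tumours of adult mice of mixed strain that carried CGRPCreER/+ together with Rbf/f, P53f/f and, as a further floxed allele, Ptenf/f, and that had been injected with TM, an abbreviation the labels do not spell out. CGRPCreER is a Cre expressed under the promoter of a neuroendocrine peptide gene, so these floxed alleles and the Cre are shared by every group, controls included. In the genotype field of the first 7 libraries the p53 allele is numbered differently from sample to sample, whereas the source text gives P53f/f for each. The source text of 7 libraries, namely day 0 replicate 2 and both libraries of days 3, 7 and 21, adds Rosa26rtTA and Tet-onYAP5SA, a transgene under a tetracycline-controlled promoter. Day 0 replicate 1 is titled as a YAP5SA culture, but its source text lists no transgene. The inducing agent and the number of tumours or clones behind the cultures were not given in the sources used here, all cells were grown in Hites medium, and the series has no time-matched cultures without the transgene at days 3, 7 and 21. No label says that replicates were separate cultures, so p-values measure the spread between libraries, which may be technical.

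Chemokines are small secreted proteins that steer leukocytes along concentration gradients by binding G protein-coupled receptors. CC chemokines such as CCL2 act mainly on monocytes, lymphocytes and dendritic cells, and the CXC chemokines CXCL1 and CXCL5 draw neutrophils through CXCR2. CSF1 is the growth factor on which most macrophages depend, LIF and IL-6 signal through the shared receptor chain gp130 to JAK kinases and STAT3, and IL-33 is a nuclear cytokine of the IL-1 family that is released from damaged cells. Many of these genes are induced by NF-kB, and YAP acts on DNA through TEAD factors.

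Library totals ran from 6730816 to 10659524 counts. Levels are in CPM (library-scaled read counts) after scaling by the trimmed mean of M-values (TMM), and a group at 0 counts allows a level of up to 0.104 CPM in NE and up to 0.152 CPM at day 7, the lowest and highest such limits. Floors and intervals cover counting error only. NE replicate 2 was not an independent library: in 0 of 32926 genes did it hold more counts than day 0 replicate 1, and its total was 85.7% of that library's, so its reads appear to be a part of the same read set. Control reads are therefore shared between the NE group and day 0, that is between both kinds of comparison, and values without the shared library stand beside the results on the 10 factors and beside the counts of other genes. Yap1 was at 7.50 ± 0.53 CPM (SD, n = 2) at day 0, 1148 ± 120 at day 3, 764 ± 41.8 at day 7 and 213 ± 8.03 at day 21, beside 13.01 ± 5.64 in NE and 206 ± 63.6 in Non-NE (n = 3 each).

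The neuroendocrine genes Insm1, Chga, Syp, Calca and Ddc summed to 1376 to 1399 CPM in NE libraries, 0.826 to 1.91 CPM in Non-NE, 1393 to 1443 CPM at day 0 and 292 to 295 CPM at day 21. Calca, the gene of CGRP, was at 0 in every group except day 21. The fibroblast list (Pdgfra, Pdgfrb, Col1a1, Col1a2, Col3a1, Dcn, Lum and Thy1) summed to 10464 to 22655 CPM in Non-NE, 2.99 to 7.87 CPM in NE, 6.29 to 7.22 CPM at day 0 and 46.7 to 51.6 CPM at day 21. In Non-NE 7 of these 8 genes were above 1 CPM and Thy1 was at 0. Of 16 leukocyte markers 15 were in the table. Their summed level was 9.80 to 52.9 CPM in NE, 20.8 to 27.5 in Non-NE, 10.9 to 12.4 at day 0, 5.05 to 5.42 at day 3, 5.29 to 7.32 at day 7 and 12.4 to 13.9 at day 21. Ptprc, the gene of the pan-leukocyte protein CD45, was at 0 in all 8 YAP5SA libraries and at most at 0.366 CPM elsewhere, and Tyrobp and Ncr1 were at 0 in all 14 libraries. Cd14, a gene of monocytes and macrophages, was at 13.9, 17.8 and 15.9 CPM in Non-NE and held 1 count in NE (adjusted p = 0.000349). Cd68, a lysosomal gene of the same cells, was at 5.12, 5.86 and 9.02 CPM in Non-NE beside 1.64, 2.41 and 2.77 CPM in NE (adjusted p = 0.0341, or 0.0862 without NE replicate 2). Lyz2 and Laptm5, also on the list, were lower in Non-NE (log2 -6.79 and -6.14, adjusted p = 0.0149 and 0.00123), where they held 3 and 2 counts. Lyz2 was at 40.4, 5.03 and 1.60 CPM in NE replicates 1, 2 and 3. Of 4 leukocyte markers tested, 2 were thus higher and 2 lower, beside 20.0% and 22.8% of all genes. Without NE replicate 2 it was 1 and 2. Cd14 passed the filter on low counts only through Non-NE, and Lyz2 and Laptm5 only through NE, so these counts are no support. Cd14 and Cd68 were higher in the group where most of the factors were highest. The part of leukocyte markers in those results was not tested. The alveolar type I list (Ager, Pdpn, Aqp5, Hopx and Rtkn2) summed to 10.6 to 18.7 CPM in NE, 33.5 to 170.2 in Non-NE, 19.7 to 20.3 at day 0, 963 to 1283 at day 3, 4802 to 5261 at day 7 and 2801 to 3203 at day 21. All 5 of these genes were called higher at days 3, 7 and 21 than at day 0, beside 26.2%, 37.2% and 37.7% of all genes tested. Pdpn and Hopx held 5 and 6 counts at day 0 and passed the filter on low counts only through the later days, so this count is no support. The 5 genes moved over the same days as Csf1, Ccl20 and Lif, and their part in those results was not tested. The 5 endothelial markers summed to at most 2.44 CPM in any library. The share of fibroblast or neuroendocrine cells in the cultures was not measured, and in bulk RNA fewer cells of a type and less RNA per cell cannot be told apart.

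The start regions of the factors are shown because 3 of them (Csf1, Ccl20 and Lif) changed over the YAP5SA days and Cxcl1 varied most between replicate libraries among the factors that passed the test. RefSeq windows were matched for 7 of the 10 genes, in GRCm38.p6, which is mm10. Each sequence is the 250 bases before the RefSeq start, 5′ to 3′ on the gene's strand, and capitals mark a match to 1 of 3 motifs searched on both strands: GGAANTTCC (an NF-kB site), GGAATG (a TEAD site) and TGANTCA (an AP-1 site).
Csf1: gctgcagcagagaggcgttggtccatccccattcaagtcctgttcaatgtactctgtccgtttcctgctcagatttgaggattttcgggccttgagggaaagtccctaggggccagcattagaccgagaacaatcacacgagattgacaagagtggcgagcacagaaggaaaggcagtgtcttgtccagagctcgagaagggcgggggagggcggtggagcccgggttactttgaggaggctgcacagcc
Ccl20: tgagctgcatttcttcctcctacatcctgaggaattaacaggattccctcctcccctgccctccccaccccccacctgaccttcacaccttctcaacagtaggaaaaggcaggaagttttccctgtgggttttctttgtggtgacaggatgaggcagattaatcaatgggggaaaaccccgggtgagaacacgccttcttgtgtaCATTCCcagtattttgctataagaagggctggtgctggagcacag
Lif: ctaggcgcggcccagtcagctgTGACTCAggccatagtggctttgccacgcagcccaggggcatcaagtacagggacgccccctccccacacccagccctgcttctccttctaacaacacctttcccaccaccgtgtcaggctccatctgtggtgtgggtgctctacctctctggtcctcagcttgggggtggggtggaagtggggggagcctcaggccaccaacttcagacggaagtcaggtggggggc
Cxcl1: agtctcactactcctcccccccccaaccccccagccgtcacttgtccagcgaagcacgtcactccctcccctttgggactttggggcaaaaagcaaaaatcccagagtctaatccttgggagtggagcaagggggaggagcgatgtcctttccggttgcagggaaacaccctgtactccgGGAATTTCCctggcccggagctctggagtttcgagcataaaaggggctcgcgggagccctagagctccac
The windows lie at chr3:107760470-107760719 on the minus strand for Csf1, chr1:83116516-83116765 on the plus strand for Ccl20, chr11:4257318-4257567 on the plus strand for Lif and chr5:90890995-90891244 on the plus strand for Cxcl1. Csf1 held none of the 3 motifs. Ccl20 held CATTCC, the TEAD letters on the other strand, from -45 to -40 of the start. Lif held TGACTCA from -228 to -222, and Cxcl1 held GGAATTTCC from -70 to -62. Of the windows not printed, Il6 held an AP-1 match, both windows of Il33 held a TEAD match and Cxcl12 held none, and no window held overlapping matches. Among 32851 windows of this length 0.813% held the NF-kB letters, 12.6% the TEAD letters and 6.75% the AP-1 letters. A match is only a run of letters, with no measurement of binding behind it. Only 1 pattern per motif was searched. No match therefore says nothing of a site with other letters in the window, or of a factor that binds elsewhere.

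In Non-NE against NE cells, 6 of the 7 factors that could be tested were higher and 0 were lower at an adjusted p under 0.05 (edgeR's quasi-likelihood F test with Benjamini-Hochberg adjustment), beside 20.0% of 12966 genes called higher and 22.8% called lower. The factors higher in Non-NE were Csf1, Cxcl12, Ccl2, Ccl7, Cxcl1 and Il33. Ccl20, Cxcl5 and Il6 had too few counts in too few libraries to be tested. The share called cannot be read as support, because Cxcl12, Ccl2, Ccl7, Cxcl1 and Il33 were at or near 0 in NE and passed the filter on low counts only through Non-NE. Csf1 and Lif are the exceptions: both had counts in every NE library. The median log2 change of the 7 was 10.03, or 7.49 with the genes at 0 in NE set to their limit, beside -0.02 over all genes tested.

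**Figure D1:**
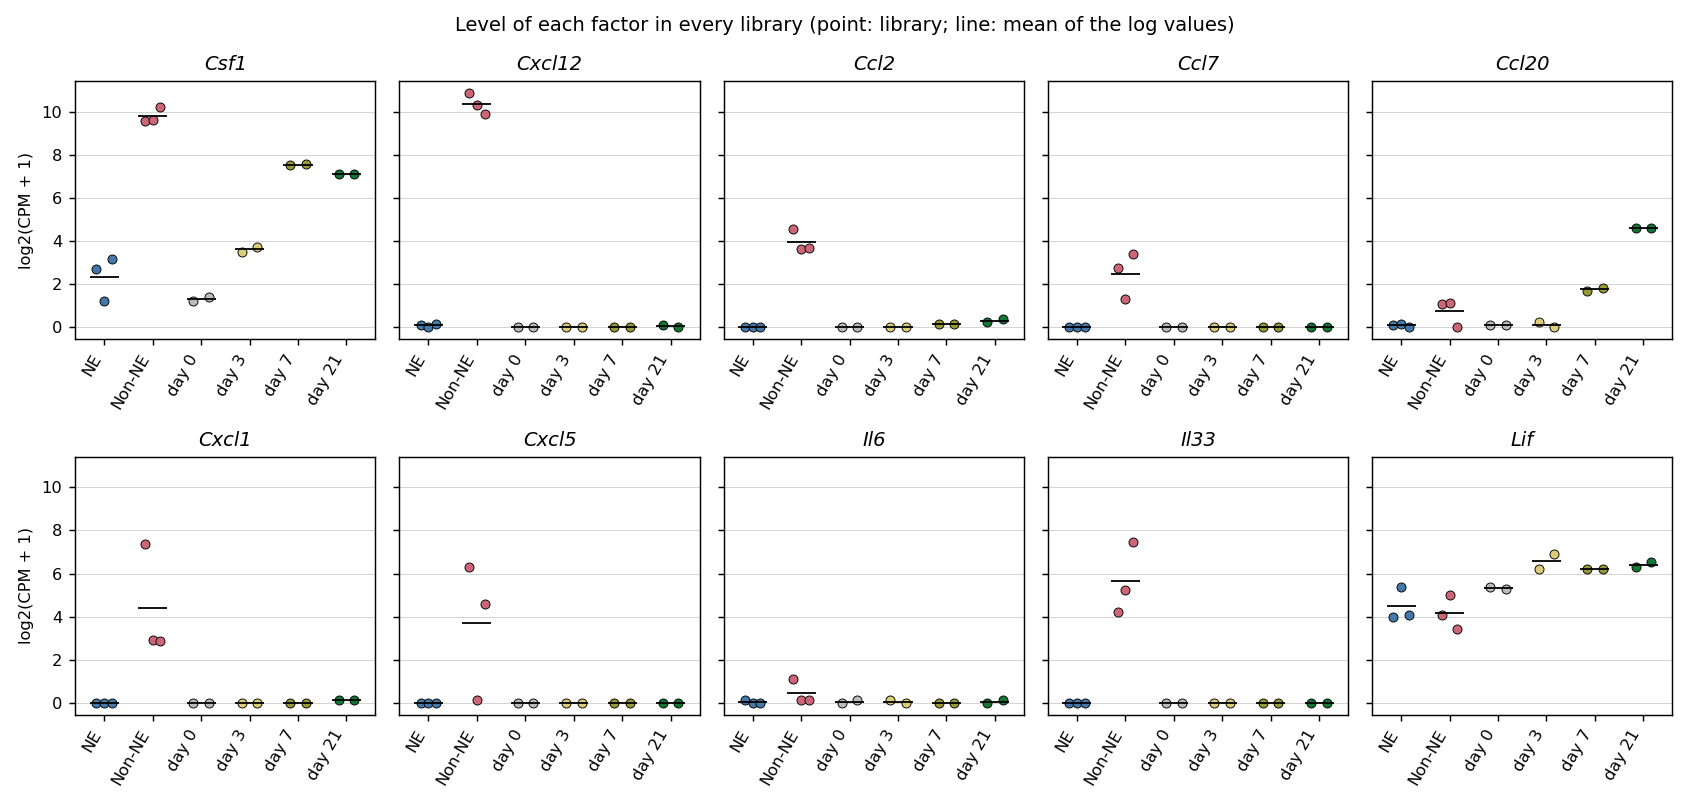
Level of each of the 10 factors as log2(CPM + 1) on the vertical axis for every library of the 6 groups, with points for libraries and lines for the mean of the log values. Cxcl12, Ccl2, Ccl7, Cxcl1, Cxcl5 and Il33 stand above 1 CPM only in Non-NE libraries, Csf1 in all 6 groups, Il6 in 1 Non-NE library, Ccl20 at days 7 and 21 and in 2 Non-NE libraries, and Lif in every library.

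Csf1 (chromosome 3, 107741048 to 107760469, minus strand, mm10) encodes the main macrophage growth factor. Its level was 5.50, 1.31 and 7.88 CPM in NE replicates 1, 2 and 3 and 761, 791 and 1172 CPM in Non-NE replicates 1, 2 and 3. Every Non-NE library was far above every NE library. The change was 180-fold (log2 7.49 ± 0.70 SE, adjusted p = 0.000348), and it was 7.07 on the log2 scale without NE replicate 2 (adjusted p = 0.000381). Non-NE libraries differed among themselves by 1.54 times, the smallest spread of the factors measured there.

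Over the YAP5SA days Csf1 rose from 1.31 and 1.67 CPM at day 0 to 10.4 and 12.4 at day 3 and 185.0 and 186.3 at day 7. At day 21 it stood at 135.3 and 138.9 CPM. No libraries of different days overlapped. The rise was 7.56-fold at day 3 (log2 2.92 ± 0.21, adjusted p = 1.21e-11), 125-fold at day 7 (6.96 ± 0.14, adjusted p = 1.71e-23) and 92.6-fold at day 21 (6.53 ± 0.14, adjusted p = 7.35e-23), all against day 0. Without day 0 replicate 1 these log2 changes were 2.76, 6.80 and 6.37. The step from day 3 to day 7 alone was 16.5-fold (adjusted p = 7.88e-21), and from day 7 to day 21 Csf1 fell by 0.43 on the log2 scale (adjusted p = 3.51e-05). In a fit of all 14 libraries, which estimates the spread over NE and Non-NE as well, that fall did not pass (adjusted p = 0.704). Day 21 libraries were still 6.62-fold below Non-NE (log2 -2.73 ± 0.23, adjusted p = 6.70e-06). In order of level Csf1 ran Non-NE, day 7, day 21, day 3, NE and day 0, and only the last neighbours, NE and day 0, overlapped.

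Cxcl12 (chromosome 6, 117168535 to 117181367, plus strand) encodes the homeostatic ligand of CXCR4 and ACKR3 that mesenchymal cells are known for. It reached 1874, 1255 and 941 CPM in the 3 Non-NE libraries. In NE it was at 0.0965, 0 and 0.106 CPM, a total of 2 counts. Over the YAP5SA days it was at 0 at days 0, 3 and 7 and held 1 count at day 21. The pooled ratio of Non-NE to NE was 18614, with a 95% counting interval from 5152 to 153709 (adjusted p = 2.59e-05), and the fitted log2 change was 13.5 without NE replicate 2 (adjusted p = 0.000274). Against day 21 the ratio was 26829, with an interval from 4815 upwards (adjusted p = 3.29e-06). Cxcl12 was higher in the Non-NE libraries, where the fibroblast list was also at its highest, and the part of fibroblast markers in this result was not tested.

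Ccl2 and Ccl7 encode monocyte chemokines that bind CCR2 and lie next to each other on chromosome 11, Ccl2 from 82035571 to 82037453 and Ccl7 from 82045712 to 82047525, 8.26 kb apart on the plus strand. Ccl2 was at 22.5, 11.2 and 11.99 CPM in Non-NE and at 0 in all 3 NE libraries. Ccl7 was at 5.78, 1.47 and 9.55 CPM in Non-NE and at 0 in the other 11 libraries. The highest Non-NE library was replicate 1 for Ccl2 and replicate 3 for Ccl7, so the neighbouring genes did not rank the libraries alike. Ccl2 was at least 139-fold higher in Non-NE than in NE (adjusted p = 0.00111), and Ccl7 at least 55.8-fold (adjusted p = 0.00783). Without Non-NE replicate 3 the fitted log2 change of Ccl7 was 7.93 in place of 8.60 (adjusted p = 0.0221).

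Neither monocyte chemokine came near its Non-NE level over the YAP5SA days. Ccl2 was at 0 at days 0 and 3, at 0.102 CPM in both day 7 libraries and at 0.191 and 0.291 CPM at day 21. These were 5 counts in all at day 21, too few to be tested within the days. Non-NE was 60.01-fold above day 21 for Ccl2 (counting interval 25.5 to 186, adjusted p = 0.000176). For Ccl7 it was at least 40.2-fold above day 21 (adjusted p = 0.0106), but not by DESeq2 (adjusted p = 0.144).

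Cxcl1 and Cxcl5 encode ligands of the neutrophil receptor CXCR2 and lie on the plus strand of chromosome 5, Cxcl5 from 90759360 to 90761624 and Cxcl1 from 90891241 to 90893115, 129.6 kb apart. Cxcl1 was at 165.3, 6.59 and 6.37 CPM in Non-NE replicates 1, 2 and 3 and at 0 in every NE library. Cxcl5 was at 78.3, 0.122 and 23.1 CPM in Non-NE and at 0 in the 11 other libraries. Replicate 1 was the highest for both genes and held 92.7% of the summed Cxcl1 CPM and 77.1% of the summed Cxcl5 CPM, while replicate 2 held a single Cxcl5 count. Cxcl1 spread 26.0-fold between Non-NE libraries, and the SD of its group mean (59.4 ± 91.7 CPM, n = 3) exceeded the mean.

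Cxcl1 was at least 453-fold higher in Non-NE than in NE by pooled counts, with an adjusted p of 0.0263. This call was lost when NE replicate 1, 2 or 3 was left out (adjusted p = 0.0570, 0.0566 and 0.0559) and with no count filter (0.0739). Without Non-NE replicate 1 the fitted log2 change was 8.90 in place of 11.98, and the adjusted p was 0.00573. Cxcl5 was not tested against NE, and its pooled level was at least 282-fold that of NE. Against day 21, where Cxcl1 held 2 counts and Cxcl5 none, Cxcl1 was higher in Non-NE (adjusted p = 0.0266). That call was lost without either day 21 library (adjusted p = 0.141 without replicate 1 and 0.142 without replicate 2) and with no count filter (0.0776). Cxcl5 missed the threshold (adjusted p = 0.0552), though it passed without Non-NE replicate 2 (0.00373) and by DESeq2 (0.0498).

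Il33 (chromosome 19, 29925114 to 29960718, plus strand) was at 17.7, 37.0 and 174.6 CPM in Non-NE replicates 1, 2 and 3 and at 0 in each of the other 11 libraries. Replicate 3 held 76.2% of the summed level, so the library highest for Il33 was not the one highest for Cxcl1 and Cxcl5. Il33 was at least 836-fold higher in Non-NE than in NE (adjusted p = 0.00658) and at least 603-fold higher than at day 21 (adjusted p = 0.00898). Without Non-NE replicate 3 the fitted log2 change against NE was 10.86 in place of 12.38 (adjusted p = 0.00419). Without NE replicate 2 the adjusted p was 0.0165 for Il33, 0.00372 for Ccl2 and 0.0200 for Ccl7.

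**Figure D2:**
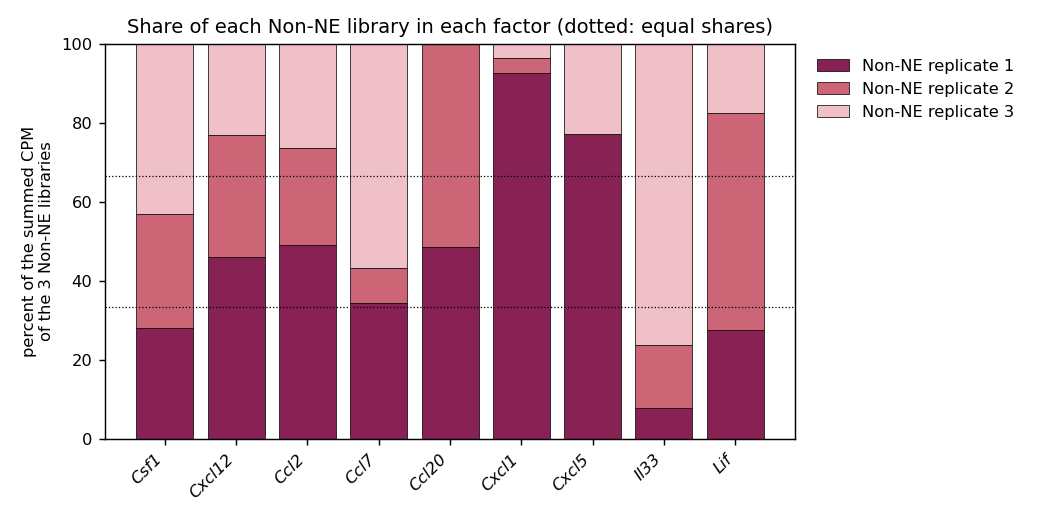
Share of each Non-NE library, in percent of the summed CPM of the 3 libraries, for 9 factors, with dotted lines where equal shares would fall. Replicate 1 held 92.7% of Cxcl1 and 77.1% of Cxcl5, replicate 3 held 76.2% of Il33 and 56.9% of Ccl7, and Csf1 was the most evenly spread of the factors that passed the test, with 43.0% in its highest library.

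Ccl20 (chromosome 1, 83116766 to 83119167, plus strand) encodes the ligand of CCR6 that draws dendritic cells and lymphocytes to epithelia. It was at 0.0937 and 0.0926 CPM at day 0, 0.194 and 0 at day 3, 2.24 and 2.54 at day 7, and 23.5 and 23.4 at day 21. NE libraries were at 0.0965, 0.109 and 0 CPM, and Non-NE libraries at 1.16, 1.22 and 0. Both day 21 libraries stood above all others, and both day 7 libraries above Non-NE. The rise against day 0 was 23.0-fold at day 7 (log2 4.52 ± 0.60, adjusted p = 3.02e-07) and 227-fold at day 21 (7.82 ± 0.35, adjusted p = 1.97e-16). With 2 counts at day 0 the pooled ratio at day 21 was 252, with a counting interval from 69.4 to 2088. Without day 0 replicate 1 the log2 change was 4.53 at day 7 (adjusted p = 2.42e-05) and 7.83 at day 21 (adjusted p = 4.13e-13).

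In CPM Ccl20 averaged 2.39 at day 7 and 23.5 at day 21, whereas on the log2 scale the step to day 7 was the larger. The change from day 7 to day 21 was 9.85-fold (log2 3.30 ± 0.20, adjusted p = 7.46e-13), but it did not pass in the fit of all 14 libraries (adjusted p = 0.0761). At day 3 no change could be seen (log2 0.01 ± 1.25, adjusted p = 1), and with 2 counts per day its sign flipped to -3.12 without day 3 replicate 1. The log2 change from day 3 to day 7 was 4.52 (adjusted p = 6.39e-07), 7.65 without day 3 replicate 1 and 3.56 without day 3 replicate 2. Day 21 exceeded Non-NE 30.6-fold (log2 4.93 ± 0.83, adjusted p = 0.000729), a direction shared only with Lif among the factors. Without Non-NE replicate 3, which held no Ccl20 count, this log2 change was 4.27.

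Lif (chromosome 11, 4257557 to 4272514, plus strand) encodes leukemia inhibitory factor, and it alone among the 10 was above 9 CPM in every library. NE replicates 1, 2 and 3 were at 14.7, 40.7 and 16.1 CPM and the Non-NE replicates at 15.7, 31.3 and 9.87 CPM. The groups overlapped and the change did not pass the test (log2 -0.38 ± 0.57, adjusted p = 0.620). The highest NE value was that of replicate 2, the library with shared reads, and without it the log2 change was 0.28 (adjusted p = 0.716). Over the YAP5SA days Lif was at 40.1 and 37.9 CPM at day 0, 73.2 and 120.1 at day 3, 73.9 and 72.5 at day 7, and 77.4 and 92.0 at day 21. Every library of the later days lay above both day 0 libraries.

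The rise of Lif against day 0 was 2.46-fold at day 3 (log2 1.30 ± 0.22, adjusted p = 0.00141), 1.89-fold at day 7 (0.92 ± 0.22, adjusted p = 0.00622) and 2.20-fold at day 21 (1.14 ± 0.22, adjusted p = 0.00179). Without day 0 replicate 1 it passed at all 3 days (adjusted p = 0.00971, 0.0249 and 0.00995), and at day 21 it missed the threshold without day 21 replicate 2 (0.0511). In the fit of all 14 libraries it did not pass at any day (adjusted p = 0.210, 0.235 and 0.144). The day 3 libraries differed 1.64-fold (counting interval 1.50 to 1.80) and those of day 21 1.19-fold (1.08 to 1.31), beyond counting error. Day 7 against day 3 and day 21 against day 7 did not pass (adjusted p = 0.156 and 0.422), and day 21 against day 3 was not tested. Day 7 against day 3 depended on the day 3 libraries: the log2 change was -0.69 without replicate 1 (adjusted p = 3.78e-06) and 0.02 without replicate 2 (0.895). Day 21 against day 7 passed without day 3 replicate 1 (0.0392) and without replicate 2 (0.0417). Day 21 was 4.47-fold above Non-NE (log2 2.16 ± 0.38, adjusted p = 0.000983). In order of level Lif ran day 3, day 21, day 7, day 0, NE and Non-NE, with overlap between days 3 and 21, between days 3 and 7, between day 0 and NE and between NE and Non-NE.

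Il6 (chromosome 5, 30013114 to 30019981, plus strand) encodes the other gp130 cytokine of the 10 and was near 0 throughout. It was at 1.16, 0.122 and 0.106 CPM in Non-NE, 9 counts in all, of which replicate 1 held 7. NE held 1 count, and no YAP5SA library held more than 1. It was tested in no comparison. The pooled ratio of Non-NE to NE was 10.99, with a counting interval from 1.52 to 482.

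**Figure D3:**
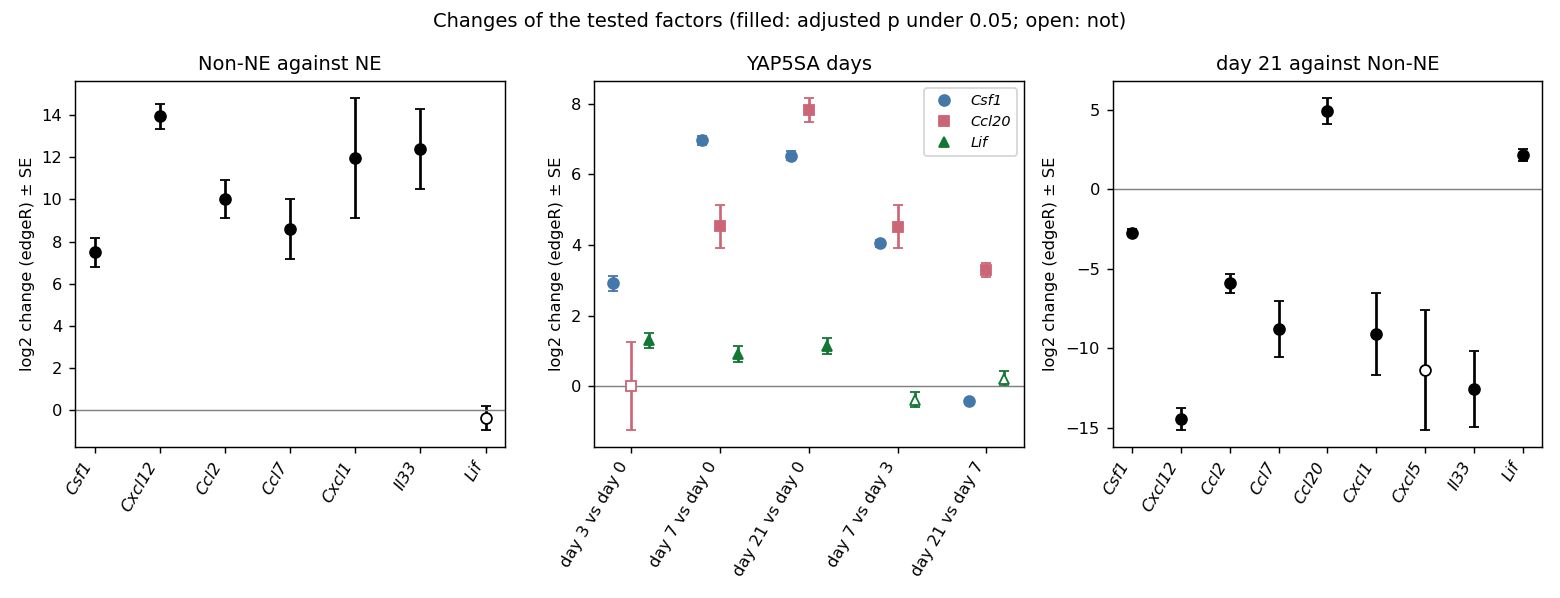
Log2 change with SE from edgeR on the vertical axis for each factor that could be tested, in Non-NE against NE, in the comparisons among the YAP5SA days, and in day 21 against Non-NE, with filled symbols for an adjusted p under 0.05. From day 3 to day 7 Csf1 lies at 4.04 and Ccl20 at 4.52, from day 7 to day 21 Csf1 lies at -0.43 and Ccl20 at 3.30, and in day 21 against Non-NE only Ccl20 (4.93) and Lif (2.16) lie above 0.

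Only Csf1, Ccl20 and Lif could be tested over the days, and the other 7 factors were at or near 0 at every day. Ccl20 held 2 counts at day 0, 2 at day 3, 47 at day 7 and 489 at day 21, so it passed the filter only through the later days and its calls cannot be read as support. At day 3 against day 0, 2 of these 3 were higher, Csf1 and Lif, beside 26.2% of 13996 genes called higher and 22.4% lower. All 3 were higher at day 7 against day 0, beside 37.2% higher and 33.8% lower, and at day 21 against day 0, beside 37.7% and 34.0%. At day 7 against day 3, Csf1 and Ccl20 were higher, beside 29.5% of genes higher and 26.1% lower. At day 21 against day 7, Ccl20 was higher and Csf1 lower, beside 26.1% higher and 24.2% lower. In day 21 against Non-NE, in 13 libraries without NE replicate 2, 2 of 9 tested factors were higher and 6 lower, beside 30.8% of 14820 genes higher and 24.5% lower. These sets of libraries differ in the transgene as well as in state, which cannot be told apart, and Ccl2, Ccl7, Cxcl1, Cxcl5, Il33 and Cxcl12 passed the filter only through Non-NE.

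Per kilobase of exon, the scale on which genes can be compared, Csf1 was at 171.9 ± 43.4 and Cxcl12 at 166.0 ± 58.1 CPM per kb in Non-NE (SD, n = 3), closer than their spread. Cxcl1 was at 31.7 ± 48.9, Il33 at 26.5 ± 29.7, Cxcl5 at 18.2 ± 21.6, Ccl2 at 13.4 ± 5.52, Ccl7 at 6.99 ± 5.05 and Lif at 4.35 ± 2.54 CPM per kb. The means of Cxcl1, Il33 and Cxcl5 were carried by 1 library each: without its highest library the mean was 3.46 for Cxcl1, 9.47 for Il33 and 6.24 for Cxcl5, beside 10.2 for Ccl2 without its own. These 6 genes below Csf1 and Cxcl12 are therefore not ranked among themselves. At day 21 Csf1 stood at 26.0, Lif at 19.5 and Ccl20 at 16.5 CPM per kb, and no other factor passed 1. In NE Lif led at 5.47 CPM per kb and Csf1 was at 0.928. Dividing by length changed the rank of 7 of the 10 factors in Non-NE and of 2 in NE.

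The receptors of these factors were measured in the same libraries, 14 of 15 listed genes being in the table. In Non-NE against NE 3 of the 7 tested were higher and 0 lower (median log2 1.80), beside 20.0% and 22.8% of all genes tested. In day 21 against day 0, 3 of 7 were higher and 2 lower (median 0.13), beside 37.7% and 34.0%. Against Non-NE, day 21 had 1 of 9 higher and 4 lower, although the median was above 0 (0.37), beside 30.8% and 24.5%. Without NE replicate 2 the Non-NE counts stayed at 3 and 0, and without day 0 replicate 1 the day 21 counts were 3 and 1. Scaled by library totals alone, the median of day 21 against day 0 was -0.01. Over all genes tested the medians were -0.02, 0.02 and 0.06. Il1rl1 was at 0 in NE and Ackr3 held 0, 1 and 53 counts there, so both passed the filter only through Non-NE. Csf1r and Il1rap, with 0 and 13 counts at day 0, passed only through the later days. The counts of receptors called higher or lower are therefore no support.

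Csf1r, the receptor of CSF1, was at 0 in both day 0 libraries, at 1.65 and 3.31 CPM at day 3, at 58.5 and 62.5 at day 7 and at 103.4 and 125.6 at day 21. In Non-NE, where Csf1 itself was highest, Csf1r was only at 0.661, 0.977 and 1.59 CPM, and NE held 1 count. Csf1r was at least 819-fold higher at day 21 than at day 0 (adjusted p = 2.80e-20) and 101-fold higher than in Non-NE (log2 6.66 ± 0.38, adjusted p = 1.20e-06). From day 7 to day 21 it rose 1.90-fold (adjusted p = 9.63e-08) while Csf1 fell. Csf1r is known as a gene of macrophages. The leukocyte genes Ptprc and Tyrobp were at 0 in all day 21 libraries. Itgam went from 0 and 0.0926 CPM at day 0 to 0.762 and 0.387 at day 21, and Cd68 from 2.44 and 1.85 to 7.81 and 9.20. Ly6g went from 0 to 0.857 and 1.84 CPM. Of 3 leukocyte markers tested between these days 1 was higher and 2 lower, beside 37.7% and 34.0% of all genes. Their median log2 change was -1.94. Without day 0 replicate 1, 4 markers passed the filter, and the median of that other set was 0.13. The part of leukocyte markers in the Csf1r result was not tested.

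Ackr3, the scavenging receptor of CXCL12, was at 56.2, 89.1 and 91.8 CPM in Non-NE and at 0, 0.109 and 5.64 CPM in NE (log2 5.32 ± 1.38, adjusted p = 0.0200). Cxcr4, its signalling receptor, was low in all groups and did not pass the test in that comparison (adjusted p = 0.595). At day 21 Cxcr4 was 1.54-fold lower than at day 0 (adjusted p = 0.0331, or 0.0822 without day 0 replicate 1). Il1rl1 encodes ST2, the receptor of IL-33, and was at 88.1, 73.1 and 92.1 CPM in Non-NE and at 0 in NE, a difference of at least 814-fold (adjusted p = 8.93e-05). Its Non-NE libraries lay much closer together than those of Il33. Ccr2, the receptor of CCL2 and CCL7, fell 9.98-fold from day 0 to day 21 (adjusted p = 1.71e-06). It was low throughout, at 3.09 and 2.96 CPM at day 0 and 0.0953 and 0.484 CPM at day 21. In NE it was at 3.28 CPM in replicate 2, the library with shared reads, and at 0 in replicates 1 and 3. Ccr6, the receptor of CCL20, was at no more than 0.219 CPM in any library. Ccr1, Cxcr1 and Cxcr2 were at 0 in every library.

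Of the chains that bind LIF, Il6st (gp130) was at 76.1, 87.5 and 81.6 CPM in NE and at 491.5, 267.9 and 466.2 CPM in Non-NE, 4.85-fold higher (adjusted p = 0.000841). It was 2.29-fold higher at day 21 than at day 0 (adjusted p = 3.91e-13). Lifr was at 31.1 and 29.1 CPM at day 0, 95.03 and 105.8 at day 3, 73.6 and 74.2 at day 7, and 31.1 and 34.0 at day 21. It rose 3.31-fold by day 3 (adjusted p = 4.04e-14, or 3.97e-11 without day 0 replicate 1) and at day 21 did not differ from day 0 past the threshold (log2 0.13 ± 0.10, adjusted p = 0.241), whereas Lif was still higher.

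**Figure D4:**
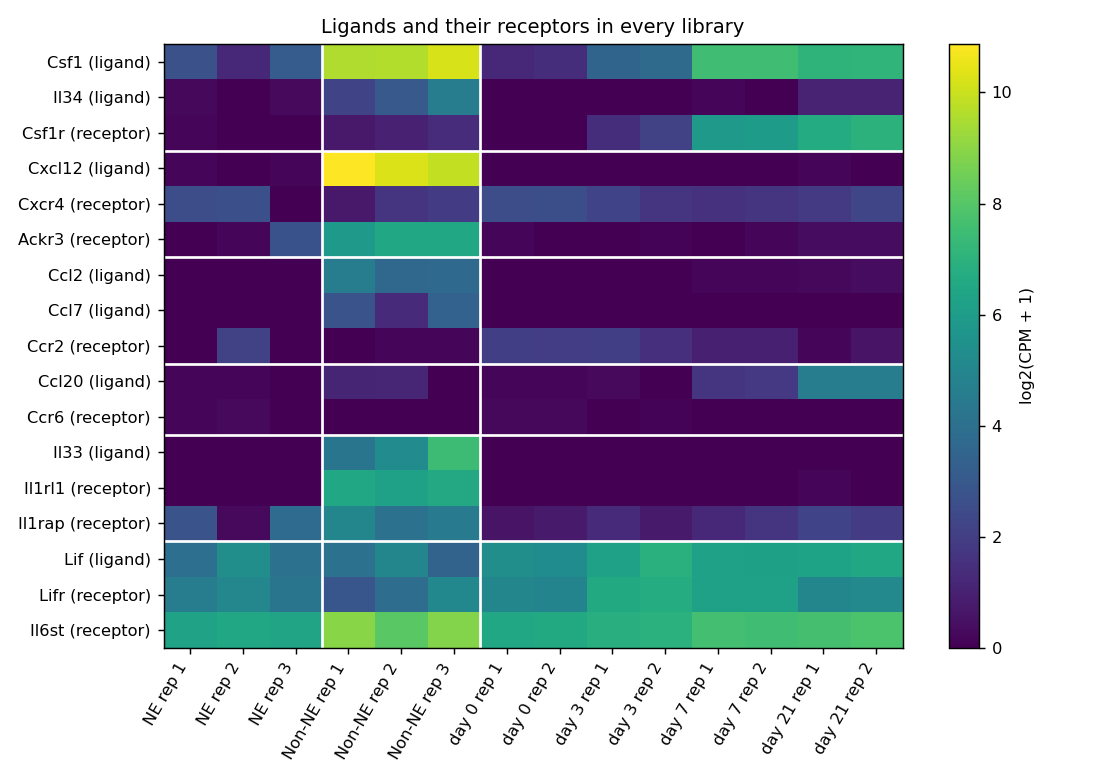
Level as log2(CPM + 1), by colour, of ligands and their receptors in rows and the 14 libraries in columns. Csf1r is bright in the day 7 and day 21 libraries (58.5 to 125.6 CPM) and dark in Non-NE, where Csf1 is brightest, while Cxcl12 with Ackr3 and Il33 with Il1rl1 are bright together in Non-NE.

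Other chemokines were tested in the same fits. In Non-NE against NE 2 of 6 tested chemokines of a list of 28 were higher and 0 lower (median log2 1.68), beside 20.0% of all genes called higher. These were Ccl9, a macrophage chemokine (6.61, 129.8 and 23.6 CPM, at 0 in NE, adjusted p = 0.0124), and Cxcl15, a lung neutrophil chemokine (11.3 ± 9.52 CPM, at 0 in NE, adjusted p = 0.00588). Both passed the filter only through Non-NE, so the count is no support. Without NE replicate 2, 4 of 7 were higher, with Ccl5 (adjusted p = 0.0372) and Cxcl10 (0.0412) added. Against day 0 all 8 tested were higher at day 21, beside 37.7% of all genes. The median was 3.89, or 3.66 with the gene at 0 set to its limit, and 4.22 without day 0 replicate 1. Ccl6, Ccl28, Cxcl17 and Ccl5 held 0, 3, 3 and 10 counts at day 0 and passed the filter only through the later days. The count at day 21 is therefore no support either. Cxcl16, a membrane-bound ligand of CXCR6, rose from 7.36 ± 0.99 to 154 ± 9.97 CPM (21.1-fold, adjusted p = 9.94e-20), and Ccl5, which attracts T cells, from 0.466 ± 0.136 to 21.2 ± 2.08 CPM (45.03-fold, adjusted p = 2.85e-15). The interferon-induced Cxcl10 was 3.31-fold, Cx3cl1 2.80-fold and Ccl25 2.4-fold higher. Against Non-NE, day 21 had 5 of 10 higher and 2 lower (median 1.60), beside 30.8% and 24.5%. Ccl6 and Cxcl17, with 7 and 8 counts in Non-NE, passed the filter there only through the YAP5SA libraries. Ccl9 and Cxcl15, with 4 and 1 counts at day 21, passed only through Non-NE. These counts are no support either.

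Of 24 other cytokines, 4 of 10 tested were higher in Non-NE than in NE and 1 was lower (median log2 2.71), beside 20.0% and 22.8% of all genes. Without NE replicate 2 it was 5 and 1 of 12. Il1rn, Il18 and Il34, all called higher, held 2, 1 and 4 counts in NE and passed the filter only through Non-NE. These counts of calls are therefore no support. Clcf1, a further gp130 cytokine, went from 1.38 ± 0.37 to 107 ± 28.9 CPM (74.7-fold, adjusted p = 5.14e-05). Il34, the second ligand of CSF1R, was at 11.3 ± 10.4 CPM in Non-NE beside 0.135 ± 0.118 in NE (adjusted p = 0.00443), and Il18, a cytokine of the IL-1 family, was at 10.0 ± 6.29 CPM beside 1 count in NE (adjusted p = 0.00147). Ctf1, another gp130 cytokine, was 12.6-fold lower (adjusted p = 0.0149). At day 21, 4 of 12 were higher than at day 0 and 2 lower (median 0.39), beside 37.7% and 34.0%, or 6 and 2 of 14 without day 0 replicate 1. Il34, called higher at day 21, held 0 counts at day 0 and 22 at day 21, and passed the filter within the days only through day 21. The count at day 21 is therefore no support either. Clcf1 rose 18.2-fold to 20.2 ± 0.17 CPM (adjusted p = 1.04e-14) and Tgfb1 2.32-fold (adjusted p = 3.61e-11), whereas Mif and Hmgb1 fell 2.02-fold and 1.45-fold (adjusted p = 4.72e-12 and 0.000169). Set against Non-NE, 3 of 16 were higher at day 21 and 7 lower (median -0.46), beside 30.8% and 24.5%. Il18, with 8 counts at day 21, passed the filter there only through Non-NE, so that count is no support.

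Of the listed NF-kB and C/EBP factors with their feedback genes, 13 of 23 tested were higher in Non-NE than in NE and 0 lower (median log2 1.61), beside 20.0% and 22.8% of all genes, with the same counts without NE replicate 2. Rel and Traf1, both called higher, held 14 and 1 counts in NE and passed the filter only through Non-NE. This count is therefore fixed in part by the filter and is no support. The inhibitor Tnfaip3 (A20) went from 15.5 ± 4.02 to 114 ± 28.0 CPM (7.13-fold, adjusted p = 0.000488), the adaptor Myd88 rose 15.9-fold (adjusted p = 0.00217), the subunit Rel 23.3-fold (adjusted p = 0.00211) and Zc3h12a, an RNase that degrades cytokine mRNAs, 17.5-fold (adjusted p = 0.000728). Between days 0 and 21, 11 of 20 were higher and 4 lower (median 0.38), beside 37.7% and 34.0%. Without day 0 replicate 1 it was 12 and 3 of 22, with Nfkbib and Traf6 no longer passing (adjusted p = 0.0590 and 0.134). Among the genes higher at day 21 were Tnfaip3 (4.06-fold, adjusted p = 3.64e-15), Nfkb1 (2.95-fold, adjusted p = 8.70e-13), Rela (2.02-fold, adjusted p = 7.09e-11) and Cebpb (2.02-fold, adjusted p = 0.000367). Day 21 had 2 of 23 higher than Non-NE and 14 lower (median -0.92), beside 30.8% and 24.5%. Traf1, with 6 counts at day 21, passed the filter there only through Non-NE, so this count is no support either.

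The listed JAK-STAT3 genes of the IL-6 family include receptor chains such as Osmr and Cntfr. On this list 2 of 12 tested were higher in Non-NE and 2 lower (median log2 -0.20), beside 20.0% and 22.8% of all genes. Scaled by library totals alone, 2 were higher and 5 lower. Without NE replicate 2 it was 3 and 1 of 13, with Cntfr no longer passing (adjusted p = 0.0517). Osmr, the oncostatin M receptor chain, was at 34.9 ± 14.1 CPM in Non-NE beside 1 count in NE (adjusted p = 0.000168). Socs3, the feedback inhibitor that STAT3 induces, was 2.63-fold lower in Non-NE (adjusted p = 0.00453) and 2.33-fold lower at day 21 than at day 0 (adjusted p = 5.21e-11). From day 0 to day 21, 7 of 13 were higher and 2 lower (median 0.51), beside 37.7% and 34.0%. Without day 0 replicate 1 it was 7 and 1, as Jak2 no longer passed (adjusted p = 0.0944). Cntfr, a receptor chain of CNTF and CLCF1, rose from 4.56 ± 0.09 to 117 ± 6.21 CPM (26.0-fold, adjusted p = 4.68e-20), and the kinase gene Pim1, a known STAT target, 4.97-fold (adjusted p = 2.05e-12). Pim1 and Socs3, both known STAT3 targets, thus changed in opposite directions. In day 21 against Non-NE 4 of 13 were higher and 3 lower (median 0.30), beside 30.8% and 24.5%. Osmr held 1 count in NE and 1 at day 0, and passed the filter only through Non-NE and through the later days. Cntfr, with 9 counts in Non-NE, passed in Non-NE against NE only through NE. The counts of calls in Non-NE against NE and in day 21 against day 0 are therefore no support.

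Each factor that reached 10 CPM in some group was set beside 11203 other genes by Pearson's r of log2(CPM + 1) over 13 libraries, given as a description, since libraries of 1 group share their state. Csf1 was most like Gatad2a (r = 0.992), Macf1 (0.988) and Slc39a13 (0.986). Cxcl12 was most like Gjc1 (0.999), Il1rl1 (0.998) and Loxl1 (0.998), and Ccl2 like Cpne8 (0.999), Rgs10 (0.998) and Zfhx4 (0.998). Cxcl1 went with Tmem45a (0.997), Serpinh1 (0.995) and Igsf10 (0.993), Cxcl5 with Wisp2 (0.998), Abi3bp (0.990) and Veph1 (0.982), and Il33 with Fam20a (0.998), Pter (0.997) and Vdr (0.992). Ccl20 went with Jph2 (0.982), Car2 (0.982) and Afap1l1 (0.976). Lif had the weakest neighbours, Zfp51 (0.951), Commd10 (0.950) and Tmc7 (0.947). No gene was among the nearest 3 of more than 1 factor.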

How the data were processed

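STAR 2.4.2 and featureCounts were used on mm10, per the submitters' processing notes, while annotation and strand setting were not given in the sources used here. As deposited by the authors, the table holds raw counts for 32926 symbols in 14 libraries, and no column was left out. Counts were scaled by TMM, and CPM levels use the scaled library totals. Genes passing filterByExpr entered edgeR 4.0.16 (R 4.3.3) and its quasi-likelihood F test with robust estimation, with Benjamini-Hochberg adjustment over all genes tested and calls at 0.05: Non-NE with NE in 6 libraries, the days in 8, and day 21 with Non-NE in 13, without NE replicate 2. The biological coefficients of variation were 0.399, 0.0548 and 0.266. A fold against a group at 0 is computed at 3 counts over the group and is written as at least that value, and 1 to 3 counts get a 95% counting interval. Coordinates and exon lengths are from GENCODE M21, promoter windows from RefSeq. Scripts were tested on simulated data.

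The 10 factors, the gene lists and the tests were chosen with earlier results of these data known. From each list, genes that passed with at least 10 CPM in some group mean could be named, at most 6 per list and comparison by size of change. Genes outside that rule, such as Ccr2, Cxcr4, Lifr, Il1rn, Jak2, Nfkbib and Traf6, were named after their values were seen. Some listed genes are not reported here. Likeness took the 3 highest correlations. Alternatives were DESeq2 1.42.0 size factors and test, library totals alone, other count filters, limma-voom (limma 3.58.1), a replicate block, all 14 libraries in 1 fit, and leaving out each library. The gene-list counts without a library with shared reads were added after seeing the data.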

Additional observations from a re-analysis of the deposited data

How the results depend on the processing

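Over 31 changes of single factors and 516 alternatives, 491 kept their direction and their side of the threshold, 14 kept the direction but no longer passed, 6 newly passed and 5 turned direction. With 2 or 3 libraries a group the precision rests on few replicates, and leaving out a library of a day leaves a lone sample that is assumed to vary like the other groups.

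In 6 comparisons the fit of all 14 libraries moved the gene counts by over 1.5 times. It called 8997 genes in Non-NE against NE in place of 5554, 1041 in place of 6804 in day 3 against day 0, 4589 in place of 9932 in day 7 against day 0, 4586 in place of 10032 in day 21 against day 0, 1281 in place of 7785 in day 7 against day 3 and 515 in place of 7042 in day 21 against day 7. In day 21 against Non-NE it called 7859 in place of 8201, and leaving out day 21 replicate 1 or 2 moved that count further, to 6057 and 6004. It called 1 factor in day 3 against day 0 and 0 in day 21 against day 7, with 1 factor at an unadjusted p under 0.05 there, while DESeq2 and limma-voom each called 2 within the days.

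Directions turned only for changes that did not pass. Lif in Non-NE against NE ran from -0.94 to 0.28 on the log2 scale over the libraries left out, Ccl20 in day 3 against day 0 from -3.12 to 0.97, and Lif in day 7 against day 3 from -0.69 to 0.021. Ccl20 in day 3 against day 0 was also -0.045 with library totals only and -0.42 with limma-voom. Lif in day 7 against day 3 passed with library totals only (-0.52, adjusted p = 0.0402). The cause was not tested.

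Scaling by library totals only shifted the median log2 change of all genes from -0.02 to -0.28 in Non-NE against NE, from 0.03 to -0.17 in day 7 against day 0, from 0.02 to -0.12 in day 21 against day 0, from 0.02 to -0.12 in day 7 against day 3 and from 0.06 to 0.24 in day 21 against Non-NE. The share of higher calls then moved from 46.7% to 33.9%, from 52.4% to 40.4% and from 53.0% to 38.2% in Non-NE against NE, day 7 against day 0 and day 7 against day 3, and in the fit of all 14 libraries from 54.0% to 76.1% in day 3 against day 0. Csf1 and Ccl20 kept their calls when scaled by library totals only.

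The replicate numbers did not pair the libraries: deviations of libraries with the same number correlated between -0.06 and 0.05. With the replicate block 4888 genes were called in Non-NE against NE, 6707, 9874 and 9942 in days 3, 7 and 21 against day 0, and 6 factors in Non-NE against NE as without it.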
